A study of Mus musculus with 18 samples.

Results

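The genes described here are 33 apolipoproteins and lipoprotein handling genes of mouse liver, out of 15052 genes with a value in each of 18 mice. They were picked by gene symbol, with 1 entry per Ensembl identifier, and all 33 listed symbols were found. By role they are 13 apolipoproteins, 3 genes of lipoprotein assembly and secretion, 5 plasma enzymes, transfer proteins and their inhibitors, 6 uptake receptors, 4 sterol transporters and the 2 liver X receptors (LXRs). The comparisons address whether other apolipoproteins, receptors or LXR targets shift in the liver when *Apoe* is lost, and whether ethanol feeding alters that.

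Polyadenylated liver RNA was sequenced from 4 pair-fed WT mice (labelled Ctrl_WT), 5 pair-fed *Apoe* KO mice (Ctrl_ApoE), 5 ethanol-fed WT mice (EtOH_WT) and 4 ethanol-fed *Apoe* KO mice (EtOH_ApoE, numbered 1, 2, 4 and 5). Each mouse is 1 replicate. WT mice were C57BL/6 J, and the *Apoe* KO mice were a purchased whole-body line, so that no cell type or promoter limits the loss. Whether the WT mice were littermates of the *Apoe* KO mice is not given in the sources used here. All mice were 10–12 weeks old and acclimated to the liquid diet for 5 days. The ethanol-fed groups then drank, for 10 days, the Lieber-DeCarli diet holding 5% (v/v) ethanol, before a gavage of ethanol at 5 g/kg on day 11. The pair-fed groups had an isocaloric diet for 10 days and a gavage of dextrin-maltose at 9 g/kg, and the ethanol-fed mice were killed 9 h after the gavage. The labels list all 18 mice as female, whereas the methods of the study give either sex.

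Apolipoproteins are the protein shell of plasma lipoproteins, and the liver makes most of them. *Apob* is the structural protein of very low density lipoproteins (VLDL) and low density lipoproteins, *Apoa1* that of high density lipoproteins (HDL), and *Apoe* is the ligand by which remnant particles are taken up through receptors and heparan sulfate proteoglycans of hepatocytes. LXRs are nuclear receptors that sense oxysterols and switch on sterol efflux genes such as *Abca1*, *Abcg1*, *Abcg5* and *Abcg8*, and, in many cells, *Apoe*, *Lpl* and *Pltp* as well.

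The value of a gene in a mouse is a read count after scaling to almost the same sum in every mouse and rounding, so it is given in units and not in reads. The totals lay between 32267493 and 32292618 units per mouse and do not give the depth. In 8 libraries the low values fell on steps of an estimated 1.68 to 5.82 units per read, and in the other 10 no step was estimated. The 8 were pair-fed WT mice 1, 2 and 4 (5.82, 3.09 and 1.68) and pair-fed *Apoe* KO mice 1 and 4 (3.81 and 1.74). The rest were ethanol-fed *Apoe* KO mice 2, 4 and 5 (2.41, 4.13 and 3.96). No ethanol-fed WT mouse was among them, so the steps were spread unevenly over the groups compared. The part of depth in the comparisons was not tested. Differences of a few units were therefore not detectable in the libraries with the largest steps. Albumin and the other 6 of 7 hepatocyte markers were present in every mouse, with a summed value from 2260073 to 4114144 units. Ethanol-fed *Apoe* KO mouse 1 went against its label. Its *Xist* value was 826 against 15227 to 30379 in the other 17 mice, and its *Ddx3y* value was 1077 against 2 to 118. Results that use this mouse were therefore also computed without it. In RNA of whole liver, fewer cells of a type and less RNA per cell cannot be told apart.

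Differences are given as log2 fold changes of (value + 1) with a standard error (SE) and the adjusted p of limma, Benjamini-Hochberg adjusted over all 15052 genes, and a gene is called when that p is below 0.05. Between pair-fed *Apoe* KO and WT mice, 7 of the 33 genes were called, 5 lower and 2 higher, against 1.73% of all genes. Between ethanol-fed *Apoe* KO and WT mice, 5 of the 33 were called, 2 lower and 3 higher, against 4.69% of all genes. The values of the genotypes did not overlap for 8 of the 33 genes in pair-fed mice (7.03% of all genes) and for 6 of the 33 in ethanol-fed mice (8.13% of all genes). An unadjusted p of limma below 0.05 was reached by 17 of the 33 and 2991 of all 15052 genes in pair-fed mice. In ethanol-fed mice it was reached by 9 of the 33 and 2845 of all genes. The median log2 fold change of the 33 was 0.081 in pair-fed and −0.0602 in ethanol-fed mice, beside medians over all genes of −0.00474 and 0.107. The count in pair-fed mice varied with single libraries, and so did the count over all genes, which was 261 with all mice. Of the 33 genes, 2 were called without WT mouse 2 (73 of all genes) and 3 without WT mouse 4 (91). The number was also 3 without *Apoe* KO mouse 1 (119) or 4 (127), and it was 11 without *Apoe* KO mouse 5 (452). In ethanol-fed mice, with 706 of all genes called, 3 of the 33 were called without *Apoe* KO mouse 4 (353) and 5 without *Apoe* KO mouse 1 (620).

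**Figure D1:**
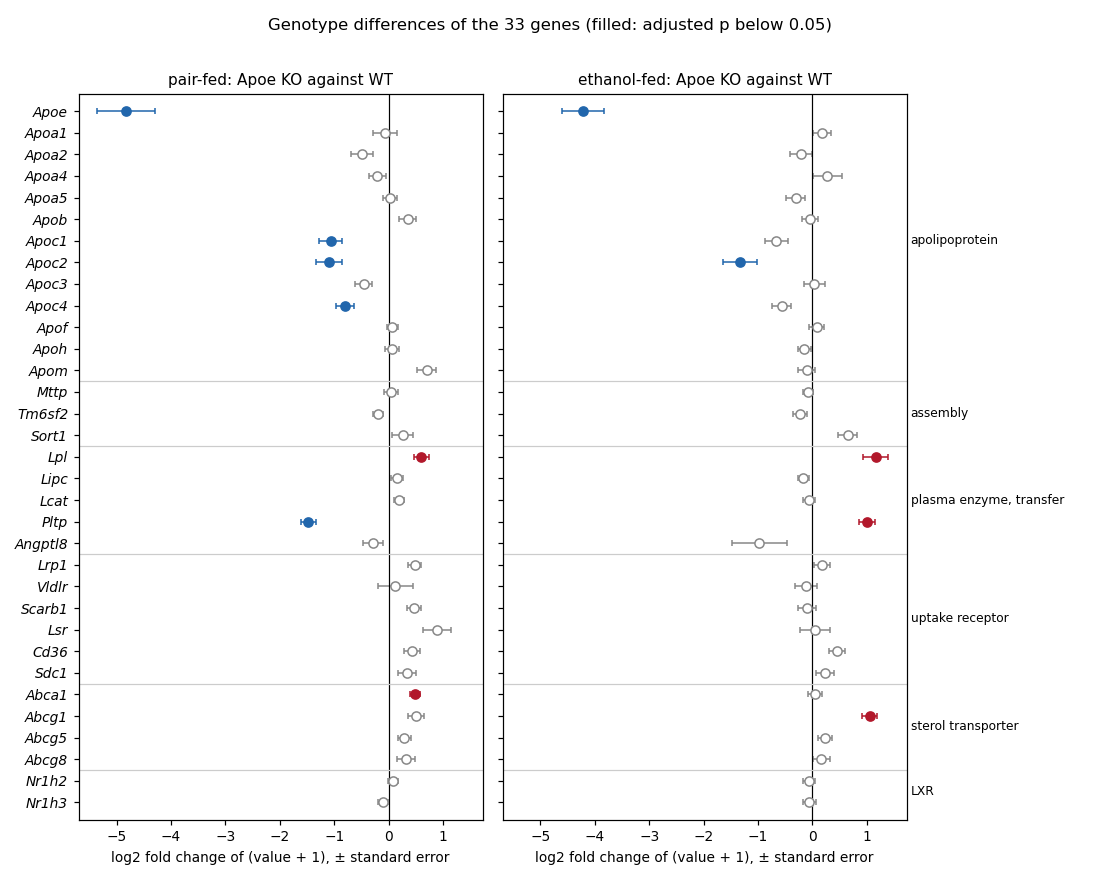
Log2 fold change of (value + 1) between *Apoe* KO and WT mice for the 33 genes, by role (points, with bars of 1 standard error), in 9 pair-fed mice (left) and 9 ethanol-fed mice (right). Filled points are called (adjusted p below 0.05, red higher, blue lower): 7 genes in pair-fed and 5 in ethanol-fed mice, with *Pltp* lower in the first and higher in the second.

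The deleted gene was checked first. *Apoe* (ENSMUSG00000002985, chromosome 7, 19696109 to 19699188, minus strand, GRCm38) had 716777, 798431, 658805 and 694458 units in the 4 pair-fed WT mice and 35484, 11504, 27229, 108651 and 8586 units in the 5 pair-fed *Apoe* KO mice. In the ethanol-fed WT mice it had 748966, 611230, 775057, 621933 and 791833 units, and in the ethanol-fed *Apoe* KO mice 1, 2, 4 and 5 it had 12041, 57963, 61572 and 48574 units. No *Apoe* KO value reached a WT value, yet the gene was not silent in any *Apoe* KO library. The rest amounted to 1.2% to 15.2% of the WT mean of the same diet in pair-fed and 1.7% to 8.67% in ethanol-fed mice. Which part of the transcript these reads cover cannot be read from values per gene. The log2 fold change was −4.82 (SE 0.53, adjusted p = 0.000502) in pair-fed and −4.21 (SE 0.38, adjusted p = 0.000142) in ethanol-fed mice, and −3.66 in the latter without mouse 1. With all mice, the level in *Apoe* KO mice was 28.3-fold lower when pair-fed and 18.6-fold lower when ethanol-fed. Ethanol did not alter *Apoe* to a called extent in WT mice, with a log2 fold change of −0.02 and a 95% confidence interval from −0.50 to 0.46.

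*Apoe* accounted for 2.22% ± 0.184 (SD, n = 4) of all units in pair-fed WT and 2.2% ± 0.268 (SD, n = 5) in ethanol-fed WT livers. In *Apoe* KO livers it accounted for 0.119% ± 0.127 (SD, n = 5) when pair-fed and 0.14% ± 0.0702 (SD, n = 4) when ethanol-fed. The other 12 apolipoproteins together held 3.21% ± 0.304 (SD, n = 4) in pair-fed WT, 2.74% ± 0.282 (SD, n = 5) in pair-fed *Apoe* KO, 2.66% ± 0.275 (SD, n = 5) in ethanol-fed WT and 2.53% ± 0.23 (SD, n = 4) in ethanol-fed *Apoe* KO mice. Within a diet the genotypes overlapped, from 2.83% to 3.57% in WT and 2.48% to 3.21% in *Apoe* KO mice when pair-fed, and from 2.28% to 2.94% and 2.19% to 2.71% when ethanol-fed, and the mean of the others was lower in *Apoe* KO mice in both diets. Per kilobase of exon, *Apoa2* was the highest of the 33 genes in pair-fed WT mice, with 536800 units per kb, before *Apoe* with 335400 and *Apoa1* with 242500 units per kb. The lowest were *Vldlr* with 27.2 and *Sort1* with 41.9 units per kb.

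The 3 apolipoproteins that lie next to *Apoe* were lower in pair-fed *Apoe* KO than in pair-fed WT mice, and *Apoc2* also when ethanol-fed. *Apoc1*, an inhibitor of remnant uptake and of lipase action, lies 3.4 kb from *Apoe*, *Apoc4* lies 14.6 kb and *Apoc2* 18.2 kb away, all on the minus strand of chromosome 7. *Apoc1* had 104078, 116044, 98761 and 137345 units in pair-fed WT and 43143, 37195, 61925, 53691 and 86215 units in pair-fed *Apoe* KO mice. Its groups did not overlap, and its log2 fold change was −1.07 (SE 0.21, adjusted p = 0.0233). In ethanol-fed mice it had 69721, 58495, 82438, 58105 and 101519 units in WT and 49948, 60916, 31957 and 44937 units in *Apoe* KO mice, with 1 *Apoe* KO mouse inside the WT range. That difference of −0.66 was not called (adjusted p = 0.0856, 95% confidence interval −1.10 to −0.22).

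*Apoc4*, which is carried on VLDL, had 11536, 13706, 10997 and 16398 units in pair-fed WT and 6764, 5516, 8862, 7126 and 9927 units in pair-fed *Apoe* KO mice. All *Apoe* KO values lay below all WT values, with a log2 fold change of −0.80 (SE 0.16, adjusted p = 0.0258). In ethanol-fed mice the difference was −0.57 (SE 0.18, adjusted p = 0.0946) with overlapping groups, from 7965 to 13127 units in WT and from 4855 to 8342 units in *Apoe* KO mice. Without *Apoe* KO mouse 1 this was −0.68 (adjusted p = 0.068). Leaving out pair-fed WT mouse 2 or 4 or *Apoe* KO mouse 1 or 4 ended the calls of *Apoc1* and *Apoc4* in pair-fed mice, with adjusted p up to 0.0826 for *Apoc1* and 0.096 for *Apoc4*.

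*Apoc2*, the cofactor of lipoprotein lipase, was called in both diets. It had 196, 116, 111 and 195 units in pair-fed WT and 57, 75, 77, 67 and 71 units in pair-fed *Apoe* KO mice, then 133, 114, 185, 102 and 177 units in ethanol-fed WT and 99, 60, 41 and 35 units in ethanol-fed *Apoe* KO mice. Every *Apoe* KO value lay below every WT value of its diet. The log2 fold change was −1.10 (SE 0.24, adjusted p = 0.033) in pair-fed and −1.34 (SE 0.31, adjusted p = 0.029) in ethanol-fed mice. These are low values, and the estimated steps put the *Apoc2* values of ethanol-fed *Apoe* KO mice 4 and 5 at about 10 and 9 reads. Annotated exons of *Gm44805* on the same strand hold 79.5% of the exonic bases of *Apoc2* and 4.69% of those of *Apoc4*, so reads of these genes may have been shared. The call in pair-fed mice was lost with the mouse number as a block, a fit that also left out *Apoe* KO mouse 5 (adjusted p = 0.0622). That in ethanol-fed mice was lost with a quality weight per sample (adjusted p = 0.0504). The call in pair-fed mice was also lost without WT mouse 1, 2 or 4 or *Apoe* KO mouse 1, 3 or 4 (adjusted p up to 0.134), and that in ethanol-fed mice without WT mouse 1, 3 or 5 or *Apoe* KO mouse 4 or 5 (adjusted p up to 0.0822). Without *Apoe* KO mouse 1 the latter was −1.62 (adjusted p = 0.0124). The interaction of diet and genotype was not called for *Apoc1*, *Apoc4* or *Apoc2* (adjusted p = 0.566, 0.72 and 0.812).

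**Figure D2:**
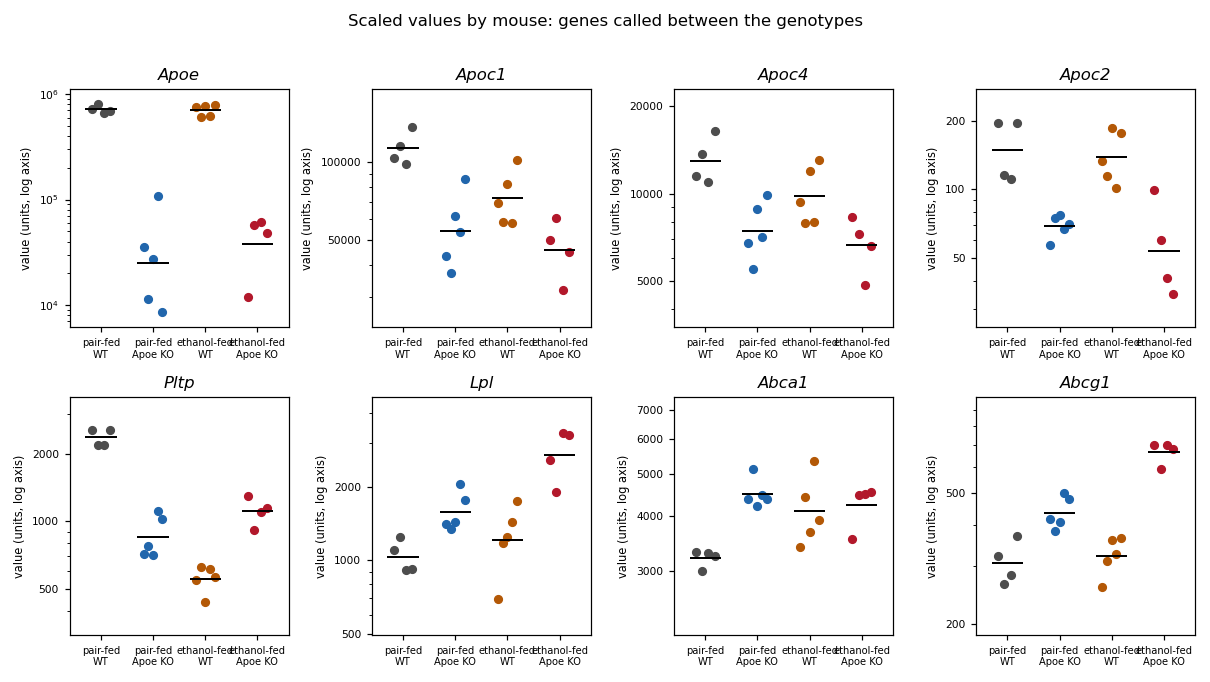
Scaled values in units (log axis) of 8 genes called between the genotypes, with 1 point per mouse and a line at the mean of log2(value + 1), in 4 pair-fed WT, 5 pair-fed *Apoe* KO, 5 ethanol-fed WT and 4 ethanol-fed *Apoe* KO mice. *Apoe* is lowest at 8586 units in an *Apoe* KO mouse, and *Pltp* lies at 2185 to 2564 units in pair-fed WT mice and at 436 to 1298 units elsewhere.

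The other 9 apolipoproteins were not called between the genotypes in either diet. *Apob* had 90538 ± 18266 units (SD, n = 4) in pair-fed WT, 114099 ± 7098 (SD, n = 5) in pair-fed *Apoe* KO, 115458 ± 14219 (SD, n = 5) in ethanol-fed WT and 111888 ± 9948 (SD, n = 4) in ethanol-fed *Apoe* KO mice. The log2 fold change between the genotypes was 0.35 (adjusted p = 0.223) in pair-fed and −0.04 (adjusted p = 0.918) in ethanol-fed mice. *Apoa1* gave −0.07 and 0.18, with 95% confidence intervals from −0.52 to 0.39 and from −0.18 to 0.54. *Apoa2*, the second protein of HDL, gave −0.49 (adjusted p = 0.213) and −0.21 (adjusted p = 0.627), and *Apoc3*, an inhibitor of triglyceride clearance, gave −0.45 (adjusted p = 0.136) and 0.03 (adjusted p = 0.957). *Apoa1*, *Apoc3*, *Apoa4* and *Apoa5* lie beside each other on chromosome 9. *Apom*, the carrier of sphingosine 1-phosphate on HDL, was close to a call in pair-fed mice, with 5169, 4105, 5220 and 2992 units in WT and 7003, 7018, 8798, 7487 and 4987 units in *Apoe* KO mice. Only *Apoe* KO mouse 5 fell into the WT range, and the log2 fold change was 0.70 (SE 0.17, adjusted p = 0.0548). In ethanol-fed mice *Apom* gave −0.10 (adjusted p = 0.787), or −0.29 (adjusted p = 0.22) without mouse 1, which had 10836 units against 6240 to 6698 in the other 3.

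None of the 3 genes of VLDL assembly was called between the genotypes by limma, with an unadjusted p below 0.05 for 0 of them in pair-fed and 1 in ethanol-fed mice. Of all 15052 genes, 2991 and 2845 had such a p. *Mttp*, which loads lipid onto *Apob*, had means from 11780 units in pair-fed WT to 13163 units in ethanol-fed WT mice, and its log2 fold change between the genotypes was 0.05 (95% confidence interval −0.22 to 0.32) in pair-fed and −0.08 (95% confidence interval −0.28 to 0.12) in ethanol-fed mice. *Tm6sf2*, which helps to lipidate VLDL, gave −0.19 (adjusted p = 0.256) and −0.24 (adjusted p = 0.357). *Sort1*, a sorting receptor that binds *Apob*, had 378, 301, 333, 299 and 335 units in ethanol-fed WT and 525, 463, 741 and 388 units in ethanol-fed *Apoe* KO mice. Its groups did not overlap, but the log2 fold change of 0.65 (SE 0.18) missed the threshold (adjusted p = 0.055).

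*Pltp*, the phospholipid transfer protein that remodels HDL, was the only one of the 33 genes with a called interaction of diet and genotype, against 2.84% of all genes. It lies on the minus strand of chromosome 2, from 164839518 to 164857711. The 250 bases before its RefSeq start (chr2:164857709-164857958, minus strand, GRCm38.p6) are shown because its interaction was the one called. These bases hold none of the 3 motifs searched for (spelled out with *Abca1* below) and so carry no capitals, while TATAAA stands after the start, at positions 36 to 41 counted from 0 at the start and outside the bases printed.
Pltp: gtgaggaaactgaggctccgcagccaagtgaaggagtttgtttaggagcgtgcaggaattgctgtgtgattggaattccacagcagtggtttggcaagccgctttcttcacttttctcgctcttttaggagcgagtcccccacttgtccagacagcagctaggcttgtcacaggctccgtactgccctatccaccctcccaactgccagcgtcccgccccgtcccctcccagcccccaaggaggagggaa

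*Pltp* had 2564, 2185, 2196 and 2552 units in pair-fed WT and 713, 777, 708, 1112 and 1025 units in pair-fed *Apoe* KO mice. In ethanol-fed WT mice it had 547, 627, 436, 613 and 566 units, and in ethanol-fed *Apoe* KO mice 1298, 919, 1101 and 1146 units. The pair-fed WT mice were far above all other mice, the ethanol-fed WT mice were the lowest, and the *Apoe* KO mice of either diet lay between them. The *Apoe* KO against WT log2 fold change was −1.47 (SE 0.14, adjusted p = 0.000154) in pair-fed and 1.0 (SE 0.14, adjusted p = 0.00221) in ethanol-fed mice. Ethanol gave −2.09 (SE 0.12, adjusted p = 1.71e-06), a 4.27-fold lower level, in WT and 0.38 (SE 0.15, adjusted p = 0.0933) in *Apoe* KO mice. The interaction was 2.47 on the log2 scale (SE 0.20, adjusted p = 1.07e-06), and 2.40 without ethanol-fed *Apoe* KO mouse 1. It was called in all 18 fits that left out 1 mouse, with values from 2.39 to 2.57. Exons of *Ctsa* on the other strand hold 19.3% of the exonic bases of *Pltp*, and the strand setting of the counting is not stated. *Ctsa* itself ranged from 4477 to 5146 units in pair-fed WT and from 4603 to 6248 units in ethanol-fed WT mice, where its log2 fold change was 0.14 (adjusted p = 0.436). Between *Apoe* KO and WT mice it gave 0.21 (adjusted p = 0.19) when pair-fed and 0.39 (adjusted p = 0.0713) when ethanol-fed. *Ctsa* was called higher with ethanol in *Apoe* KO mice at 0.32 (adjusted p = 0.0221), and its interaction was 0.18 (adjusted p = 0.547).

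*Lpl*, the lipase that frees fatty acids from triglyceride-rich particles, was higher in *Apoe* KO mice of both diets. It had 1106, 1245, 913 and 921 units in pair-fed WT and 1410, 1341, 1435, 2043 and 1767 units in pair-fed *Apoe* KO mice, and 694, 1177, 1251, 1436 and 1740 units in ethanol-fed WT and 2573, 1900, 3324 and 3245 units in ethanol-fed *Apoe* KO mice. The genotypes did not overlap in either diet. The log2 fold change was 0.61 (SE 0.14, adjusted p = 0.0455) in pair-fed mice, a call that, of 9 fits with a mouse left out, held only in the 1 without *Apoe* KO mouse 2. That call was also lost in the fit over all 4 groups (adjusted p = 0.127). It was lost as well with the mouse number as a block (adjusted p = 0.0828), a fit that also left out *Apoe* KO mouse 5. In ethanol-fed mice it was 1.16 (SE 0.23, adjusted p = 0.0135), and its adjusted p was 0.0516 without *Apoe* KO mouse 4 and 0.0303 without *Apoe* KO mouse 1. The other genes of the group were not called. *Lipc*, the hepatic lipase, gave 0.15 and −0.17, and *Lcat*, which esterifies cholesterol on HDL, gave 0.19 and −0.06. *Angptl8*, an inhibitor of *Lpl* that responds to feeding, varied widely among ethanol-fed mice, from 524 to 2594 units in WT and from 307 to 1875 units in *Apoe* KO mice, with a log2 fold change of −0.97 (95% confidence interval −2.08 to 0.13).

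Among the sterol transporters, *Abcg1*, which passes cholesterol to HDL from macrophages and other cells, differed in ethanol-fed mice. It had 259, 311, 360, 326 and 365 units in ethanol-fed WT and 704, 592, 704 and 681 units in ethanol-fed *Apoe* KO mice, with a wide gap between the genotypes. The log2 fold change was 1.05 (SE 0.14, adjusted p = 0.00152), and 1.03 (adjusted p = 0.0075) without mouse 1. In pair-fed mice it had 323, 265, 282 and 372 units in WT and 417, 385, 410, 502 and 482 units in *Apoe* KO mice, again without overlap but with a log2 fold change of 0.50 that was not called (SE 0.14, adjusted p = 0.079). The difference between these 2 values was not called either, with an interaction of 0.55 (SE 0.19, adjusted p = 0.125).

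*Abca1*, which loads cholesterol onto *Apoa1*, was called in pair-fed mice. Its window before the start is shown because it alone, among 33 windows of 25 of the 33 genes in RefSeq (GRCm38.p6), holds a relaxed form of the direct repeat to which LXRs bind. The letters searched for were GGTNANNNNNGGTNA on both strands, from 250 bases before to 50 bases after each start, and 0.718% of all 32851 windows hold them. The capitals mark the match to this repeat alone, which reads on the strand opposite to the one printed, at positions −67 to −53 from the start (chr4:53159896-53160145, minus strand).
Abca1: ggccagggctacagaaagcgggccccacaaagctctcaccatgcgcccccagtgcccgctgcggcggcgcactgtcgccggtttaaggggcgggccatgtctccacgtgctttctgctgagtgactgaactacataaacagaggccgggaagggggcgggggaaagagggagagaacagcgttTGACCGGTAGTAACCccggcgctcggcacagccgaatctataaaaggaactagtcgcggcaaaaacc

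A match is a description of the letters and not a bound site. The nuclear receptor half-site AGGTCA was present in 16.3% of all windows and in 6 of the 33 windows, those of *Apoa2*, *Apoc2*, *Apoc4*, *Apoh*, *Cd36* and *Lipc*. The letters TATAAA, searched for on both strands as well, were present in 13.6% of all windows and in 9 of the 33, that of *Abca1* among them, where they stand close to the start. *Abca1* had 3313, 2991, 3289 and 3243 units in pair-fed WT and 4364, 5110, 4218, 4470 and 4365 units in pair-fed *Apoe* KO mice. All *Apoe* KO values were above all WT values, with a log2 fold change of 0.49 (SE 0.09, adjusted p = 0.0126, and 0.0565 without WT mouse 2). In ethanol-fed mice it had 3402, 4421, 3685, 5354 and 3918 units in WT and 3551, 4459, 4483 and 4549 units in *Apoe* KO mice, which overlapped, and the log2 fold change was 0.05 (95% confidence interval −0.24 to 0.34). Its interaction of −0.44 was not called (adjusted p = 0.15).

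*Abcg5* and *Abcg8*, whose products form the heterodimer that secretes sterols into bile, were not called between the genotypes. *Abcg5* gave 0.29 (SE 0.12, adjusted p = 0.212) in pair-fed and 0.23 (SE 0.12, adjusted p = 0.347) in ethanol-fed mice, and *Abcg8* gave 0.33 (SE 0.16, adjusted p = 0.285) and 0.16 (SE 0.16, adjusted p = 0.651). Neither LXR gene was called, nor did either reach an unadjusted p below 0.05 by limma in either diet. *Nr1h3*, which encodes LXRα, the main form in liver, ranged from 3475 to 4218 units in pair-fed WT and from 3250 to 3807 units in pair-fed *Apoe* KO mice, with a log2 fold change of −0.10 (95% confidence interval −0.29 to 0.10). In ethanol-fed mice it gave −0.06 (95% confidence interval −0.32 to 0.20). *Nr1h2*, which encodes LXRβ, gave 0.08 (95% confidence interval −0.13 to 0.30) and −0.07 (95% confidence interval −0.31 to 0.17).

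The 6 uptake receptors were not called between the genotypes in either diet by limma, with an unadjusted p below 0.05 for 4 in pair-fed and 1 in ethanol-fed mice. Such a p was reached by 2991 and 2845 of all 15052 genes. In pair-fed mice all 6 log2 fold changes were above 0, with a median of 0.45. *Lrp1*, the large endocytic receptor for remnants, had 16463, 20234, 16292 and 14010 units in pair-fed WT and 24148, 23997, 23972, 25050 and 19498 units in pair-fed *Apoe* KO mice. Only *Apoe* KO mouse 5 lay inside the WT range, and the log2 fold change of 0.49 (SE 0.12) missed the threshold (adjusted p = 0.0538). *Scarb1*, the HDL receptor, gave 0.47 (adjusted p = 0.0811), *Lsr*, a receptor for triglyceride-rich particles, 0.89 (adjusted p = 0.0898), *Cd36*, a fatty acid transporter, 0.43 (adjusted p = 0.129) and *Vldlr* 0.12 (adjusted p = 0.859). *Sdc1*, the heparan sulfate proteoglycan that binds remnants, gave 0.33 (adjusted p = 0.275). Opposite-strand exons of other annotated genes hold 44.7% of the exonic bases of *Lsr*, and the strand setting of the counting is not stated. Without pair-fed *Apoe* KO mouse 5, *Lrp1*, *Scarb1*, *Lsr* and *Cd36* were called, with adjusted p of 0.0302, 0.0385, 0.0379 and 0.0439. In ethanol-fed mice the 6 receptors had a median log2 fold change of 0.109, the largest that of *Cd36* with 0.45 (SE 0.15, adjusted p = 0.105).

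Other genes of these pathways were taken from lists. Among 10 further LXR targets and partners, 1 was called lower and none higher in pair-fed *Apoe* KO mice, and 2 were called lower and 1 higher in ethanol-fed *Apoe* KO mice. Over all genes, 1.73% were called between the pair-fed and 4.69% between the ethanol-fed genotypes. The unadjusted p of limma was below 0.05 for 8 of the 10 in pair-fed and 7 in ethanol-fed mice, beside 2991 and 2845 of all 15052 genes. In each diet 3 of the 10 did not overlap, 1 higher and 2 lower (7.03% and 8.13% of all genes). The median log2 fold change of the 10 was −0.112 in pair-fed and −0.0997 in ethanol-fed mice. *Scd1*, the stearoyl-CoA desaturase, had 269693 ± 38644 units (SD, n = 4) in pair-fed WT and 84408 ± 31271 units (SD, n = 5) in pair-fed *Apoe* KO mice, a log2 fold change of −1.74 (adjusted p = 0.00213), and −1.14 (adjusted p = 0.0223) in ethanol-fed mice. *Srebf1*, the regulator of fatty acid synthesis, gave −0.83 (adjusted p = 0.0405) and *Arl4c*, a small GTPase, 1.47 (adjusted p = 0.00816) in ethanol-fed mice. Both had a called interaction, of −1.08 (adjusted p = 0.0469) and 1.85 (adjusted p = 0.00571). Without ethanol-fed *Apoe* KO mouse 1, *Scd1* (−0.97, adjusted p = 0.0566) and *Srebf1* (−0.83, adjusted p = 0.0729) were no longer called in ethanol-fed mice, nor was the interaction of *Srebf1* (adjusted p = 0.0631), while *Arl4c* was called at 1.63 (adjusted p = 0.0111) with a called interaction of 2.01.

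Of 12 other apolipoprotein-related genes with values, the acute phase apolipoproteins of HDL *Saa1* and *Saa2* were higher in ethanol-fed *Apoe* KO than WT mice, by 2.42 (adjusted p = 0.00387) and 2.65 (adjusted p = 0.00308) on the log2 scale. Both were called without mouse 1 as well, at 2.45 (adjusted p = 0.0124) and 2.71 (adjusted p = 0.0105). They are close copies of each other, between which reads could have been split. In pair-fed mice 1 of the 12 was called, *Apobr*, a macrophage receptor for apolipoprotein B, at −1.0 (adjusted p = 0.0374), and its interaction was 1.92 (adjusted p = 0.0062). Of 13 other genes of lipoprotein and remnant uptake, *Hspg2*, the proteoglycan perlecan, was lower in pair-fed *Apoe* KO mice (−0.62, adjusted p = 0.044), and *Lrp5* was called higher in ethanol-fed *Apoe* KO mice (0.50, adjusted p = 0.0213), though not without mouse 1 (0.46, adjusted p = 0.0517). Of 7 further lipase genes, *Pnpla2*, the adipose triglyceride lipase, was called in ethanol-fed mice (0.84, adjusted p = 0.0106, and 0.0306 without mouse 1) and none in pair-fed mice (1 with an unadjusted p of limma below 0.05). None of 15 other VLDL assembly genes and none of 9 transcriptional regulators was called between the genotypes in either diet. The unadjusted p of limma was below 0.05 for 3 of these 15 and 4 of these 9 in pair-fed and for 2 and 3 in ethanol-fed mice, and 1 of these 15 and 1 of these 9 had values that did not overlap in ethanol-fed mice. Over all 15052 genes, 2991 had such a p in pair-fed and 2845 in ethanol-fed mice, and 8.13% did not overlap in ethanol-fed mice.

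Markers of macrophages moved with the ethanol-fed genotypes. Of all 15052 genes, 4.69% were called between the ethanol-fed and 1.73% between the pair-fed genotypes. All 6 Kupffer cell markers were called higher in ethanol-fed *Apoe* KO than WT mice, among them *Clec4f* with a log2 fold change of 1.12, *Cd5l* with 1.77 and *Marco* with 1.5, and their sum ran from 10758 to 20810 units in *Apoe* KO and from 4329 to 8268 units in WT mice. Of 11 further macrophage markers, 7 were called higher and none lower, including *Cd68* with 1.35 and *Lyz2* with 1.54, with a sum from 10810 to 19451 units in *Apoe* KO and from 5307 to 7355 units in WT mice. Without *Apoe* KO mouse 1, which had the highest Kupffer cell sum, 4 of the 6 and 8 of the 11 were called higher, and the sums of the other 3 *Apoe* KO mice ran from 10758 to 17772 units for the Kupffer cell markers. None of these 17 markers was listed at 0 in any mouse. *Lpl*, *Abcg1* and *Pltp*, the 3 members called higher in ethanol-fed *Apoe* KO mice, are all known to be expressed in macrophages too, and the part of these cells in the 3 results was not tested. In pair-fed mice, 0 of 6 Kupffer cell markers was called between the genotypes by limma (2 with an unadjusted p below 0.05), with sums from 7391 to 14787 units in *Apoe* KO and from 7099 to 13079 units in WT mice. There 1 of the 11 macrophage markers was called, *Gpnmb* with 2.03, from 38 to 149 units in *Apoe* KO against 12 to 24 units in WT mice. Between these pair-fed genotypes *Lpl* was called, *Abcg1* did not overlap, and *Pltp* was 2185 to 2564 units in WT and 708 to 1112 units in *Apoe* KO mice. The part of macrophages in these pair-fed results was not tested either.

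**Figure D3:**
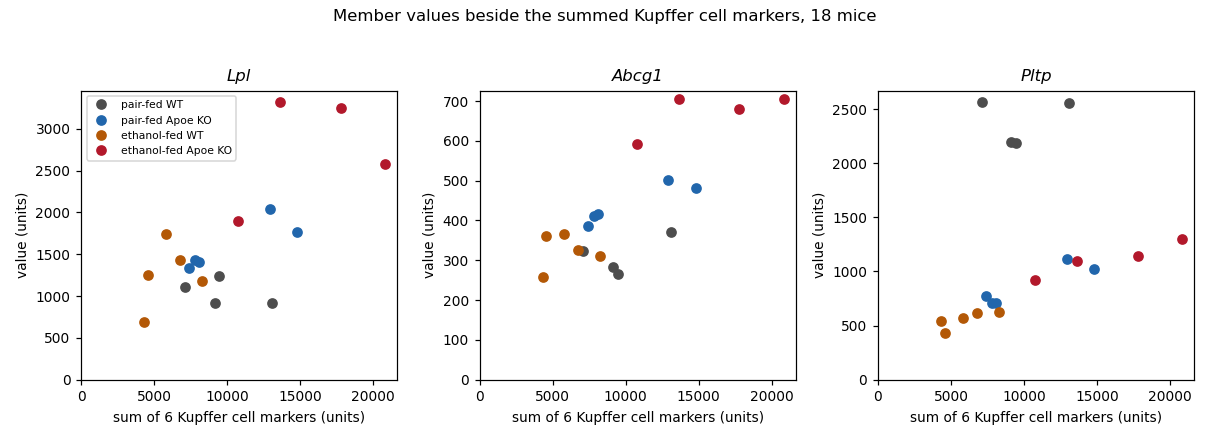
Values in units of *Lpl*, *Abcg1* and *Pltp* (y axes, from 0) against the summed value of 6 Kupffer cell markers (x axis, units), with 1 point for each of 18 mice, coloured by group. The 4 ethanol-fed *Apoe* KO mice have Kupffer cell sums of 10758 to 20810 units and *Abcg1* values of 592 to 704 units, while the 4 pair-fed WT mice stand above all others for *Pltp*.

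The second question was what ethanol did to the same genes. In WT mice 9 of the 33 genes were called between the diets, 4 higher and 5 lower, against 12.7% of all genes, and in *Apoe* KO mice 11 were called, 5 higher and 6 lower, against 23.2% of all genes. The values of the diets did not overlap for 9 of the 33 in WT mice (14.4% of all genes) and for 10 of the 33 in *Apoe* KO mice (20% of all genes). With median-of-ratios size factors, which shift the median of all genes in *Apoe* KO mice from 0.126 to nearly 0, the 11 became 12, of which 4 were higher and 8 lower. Without ethanol-fed *Apoe* KO mouse 1 the count was 13 (3320 of all genes, against 3488 with it), since all 11 remained called and *Apoh* (−0.36, adjusted p = 0.0336) and *Lsr* (−0.55, adjusted p = 0.0473) joined them. The ethanol-fed genotype comparison shifted likewise, from 0.107 to −0.0197, and kept 5 calls.

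*Abcg5* and *Abcg8* fell with ethanol in both genotypes. They lie head to head on chromosome 17, with RefSeq starts 110 bases apart, and the 111 bases from start to start (chr17:84683011-84683121, plus strand, GRCm38.p6) are shown because both genes are read outward from them. The stretch holds no match to the direct repeat or the half-site and 1 match to TATAAA, marked in capitals, which reads on the strand opposite to the one printed. The exons of the 2 genes overlap by 82 bases on opposite strands, 3.02% of those of *Abcg5* and 2.19% of those of *Abcg8*.
Abcg5 to Abcg8: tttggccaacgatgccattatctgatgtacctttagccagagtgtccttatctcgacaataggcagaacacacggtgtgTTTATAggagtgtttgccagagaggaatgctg

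*Abcg5* had 5468, 4057, 4600 and 3905 units in pair-fed WT and 1818, 1827, 2604, 1950 and 1992 units in ethanol-fed WT mice, and 5452, 4907, 6910, 4802 and 5518 units in pair-fed *Apoe* KO and 2321, 2153, 2305 and 2738 units in ethanol-fed *Apoe* KO mice. *Abcg8* had 4431, 2602, 4102 and 2770 units in pair-fed WT and 1607, 1815, 2035, 2025 and 1129 units in ethanol-fed WT mice, and 4315, 3802, 5525, 3910 and 3873 units against 1940, 1914, 1732 and 1949 units in *Apoe* KO mice. No ethanol-fed value of either gene reached a pair-fed one. The log2 fold change of *Abcg5* was −1.15 (SE 0.13, adjusted p = 0.000172) in WT and −1.21 (SE 0.11, adjusted p = 2.2e-05) in *Apoe* KO mice, and that of *Abcg8* was −1.01 (SE 0.20, adjusted p = 0.00545) and −1.17 (SE 0.11, adjusted p = 2.38e-05). Neither had a called interaction (−0.06 and −0.17), with 95% confidence intervals from −0.44 to 0.31 and from −0.67 to 0.34. *Abca1* was not called, with 0.36 (adjusted p = 0.0798, groups without overlap) in WT and −0.08 (adjusted p = 0.572) in *Apoe* KO mice. *Abcg1* was called higher in *Apoe* KO mice (0.61, SE 0.12, adjusted p = 0.00318) and gave 0.06 (adjusted p = 0.827) in WT mice.

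*Apoa4*, an apolipoprotein of chylomicrons and HDL that the fat-loaded liver also makes, rose most. It had 3711, 3646, 3952 and 4384 units in pair-fed WT and 10069, 12935, 12963, 8169 and 6795 units in ethanol-fed WT mice, and 4311, 3052, 3230, 4328 and 2432 units against 18595, 12190, 6620 and 13596 units in *Apoe* KO mice. Its diets did not overlap in either genotype, with log2 fold changes of 1.33 (SE 0.17, adjusted p = 0.000437) and 1.82 (SE 0.25, adjusted p = 0.00024), the latter 1.61 without ethanol-fed mouse 1. Opposite-strand exons of other annotated genes hold 69.8% of its exonic bases. Of 4 enterocyte markers 2 have values. *Vil1* ranged from 0 to 74 units in ethanol-fed and from 15 to 35 units in pair-fed mice, with the genotypes pooled. In WT mice *Vil1* and *Fabp2* were each called lower with ethanol, without overlap, and their median log2 fold change was −1.69. In *Apoe* KO mice only *Fabp2* was called lower, and the median was −0.421. *Fabp2* was lower with ethanol by −0.93 (adjusted p = 0.000469) in WT and −0.70 (adjusted p = 0.000857) in *Apoe* KO mice.

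Among the other apolipoproteins, *Apof*, an inhibitor of cholesteryl ester transfer, fell in both genotypes. It went from 21689 to 26439 units in pair-fed WT down to 13684 to 21077 units in ethanol-fed WT mice, with a log2 fold change of −0.43 (SE 0.13, adjusted p = 0.0415) that was not called with median-of-ratios size factors or in 8 of 9 fits with a mouse left out, the exception being that without ethanol-fed mouse 4. In *Apoe* KO mice it was −0.43 (SE 0.11, adjusted p = 0.0116) and was called in all 9 such fits. *Apom* rose in WT mice, from 5169, 4105, 5220 and 2992 units to 8333, 7331, 8702, 6662 and 9089 units (0.90, SE 0.16, adjusted p = 0.00314), without overlap. In *Apoe* KO mice it gave 0.10 (adjusted p = 0.737). The interaction for *Apom* of −0.81 was not called (SE 0.26, adjusted p = 0.0981). It was called at −0.99 (adjusted p = 0.0252) without ethanol-fed *Apoe* KO mouse 1 and at −0.93 (adjusted p = 0.0456) without pair-fed *Apoe* KO mouse 5, and the adjusted p reached 0.234 when another mouse was left out. *Apoc1* fell in WT mice (−0.64, SE 0.19, adjusted p = 0.0362) with overlapping groups, a call that was lost in the fit over all 4 groups (adjusted p = 0.056) and held in 3 of 9 fits with a mouse left out, those without pair-fed mouse 3 or ethanol-fed mouse 3 or 5.

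Receptors moved in both directions with ethanol. *Sdc1* rose in WT mice, from 5434, 5998, 6371 and 4934 units to 13407, 11938, 8611, 9355 and 7867 units (0.83, SE 0.15, adjusted p = 0.00405), and in *Apoe* KO mice, from 5299 to 8993 units up to 9739 to 14380 units (0.73, SE 0.18, adjusted p = 0.01), in both without overlap. *Vldlr*, a receptor for VLDL that is scarce in normal liver, went from 242, 326, 326 and 202 units to 484, 518, 575, 567 and 461 units in WT mice (0.95, SE 0.16, adjusted p = 0.00254). In *Apoe* KO mice a log2 fold change of 0.71 was not called (SE 0.35, adjusted p = 0.156), with values that spread from 146 to 490 units in pair-fed and from 339 to 687 units in ethanol-fed mice.

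*Lrp1* and *Scarb1* fell in *Apoe* KO mice. *Lrp1* went from 24148, 23997, 23972, 25050 and 19498 units to 19445, 12245, 14865 and 13911 units (−0.64, SE 0.13, adjusted p = 0.00317), so that the highest ethanol-fed value lay just under the lowest pair-fed one. *Scarb1* went from 4148, 3961, 4766, 3943 and 3214 units to 2961, 2855, 2121 and 2376 units (−0.64, SE 0.13, adjusted p = 0.0029). In WT mice *Lrp1* gave −0.33 (adjusted p = 0.122) and *Scarb1* −0.07 (adjusted p = 0.845), and the interactions of −0.31 and −0.57 were not called (adjusted p = 0.441 and 0.205). *Cd36* was called higher in *Apoe* KO mice at 0.45 (SE 0.14, adjusted p = 0.0331), with overlapping groups, and gave 0.42 (adjusted p = 0.0845) in WT mice. Its call was lost with median-of-ratios size factors (adjusted p = 0.123), with a quality weight per sample (adjusted p = 0.082) and without pair-fed mouse 2 or 5 or ethanol-fed mouse 2 or 4. *Lcat* fell by 0.38 on the log2 scale in *Apoe* KO mice (SE 0.10, adjusted p = 0.0125), from 13755 to 16645 units down to 11018 to 13747 units, and *Lpl* rose by 0.77 (SE 0.17, adjusted p = 0.0054), with overlap. In WT mice *Lcat* gave −0.12 (adjusted p = 0.451) and *Lpl* 0.22 (adjusted p = 0.546).

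**Figure D4:**
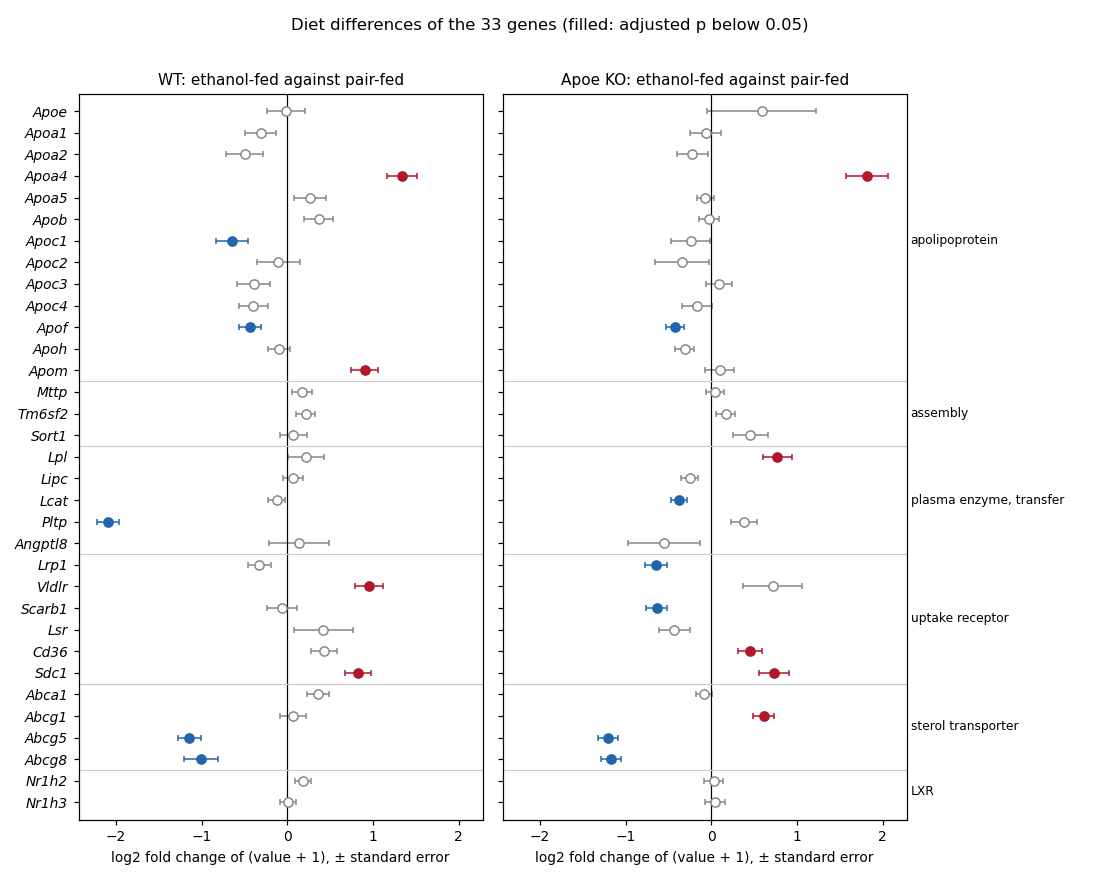
Log2 fold change of (value + 1) between ethanol-fed and pair-fed mice for the 33 genes, by role (points, with bars of 1 standard error), in 9 WT mice (left) and 9 *Apoe* KO mice (right). Filled points are called (red higher, blue lower): 9 genes in WT mice and 11 in *Apoe* KO mice, with *Abcg5* and *Abcg8* lower and *Apoa4* and *Sdc1* higher in both.

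The remaining genes were not called between the diets in either genotype, though some had an unadjusted p of limma below 0.05. In WT mice these were *Apoa2* (−0.50), *Apoc4* (−0.40) and *Apob*. In *Apoe* KO mice they were *Apoh* (−0.31, adjusted p = 0.0545, groups without overlap), *Lipc* (−0.25), *Lsr* (−0.43) and *Sort1* (0.46). Such a p was reached by 15 of the 33 and 4236 of all genes in WT, and by 16 and 5405 in *Apoe* KO mice. The values below are for WT and *Apoe* KO mice in this order. *Mttp* gave 0.17 and 0.04, *Tm6sf2* 0.21 and 0.17, *Nr1h3* 0.0032 and 0.04, and *Nr1h2* 0.18 and 0.03. *Apoa1* gave −0.31 (95% confidence interval −0.70 to 0.08) and −0.07 (95% confidence interval −0.47 to 0.33). *Apob* gave 0.36 (95% confidence interval 0.0015 to 0.73) and −0.03 (95% confidence interval −0.29 to 0.22).

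**Figure D5:**
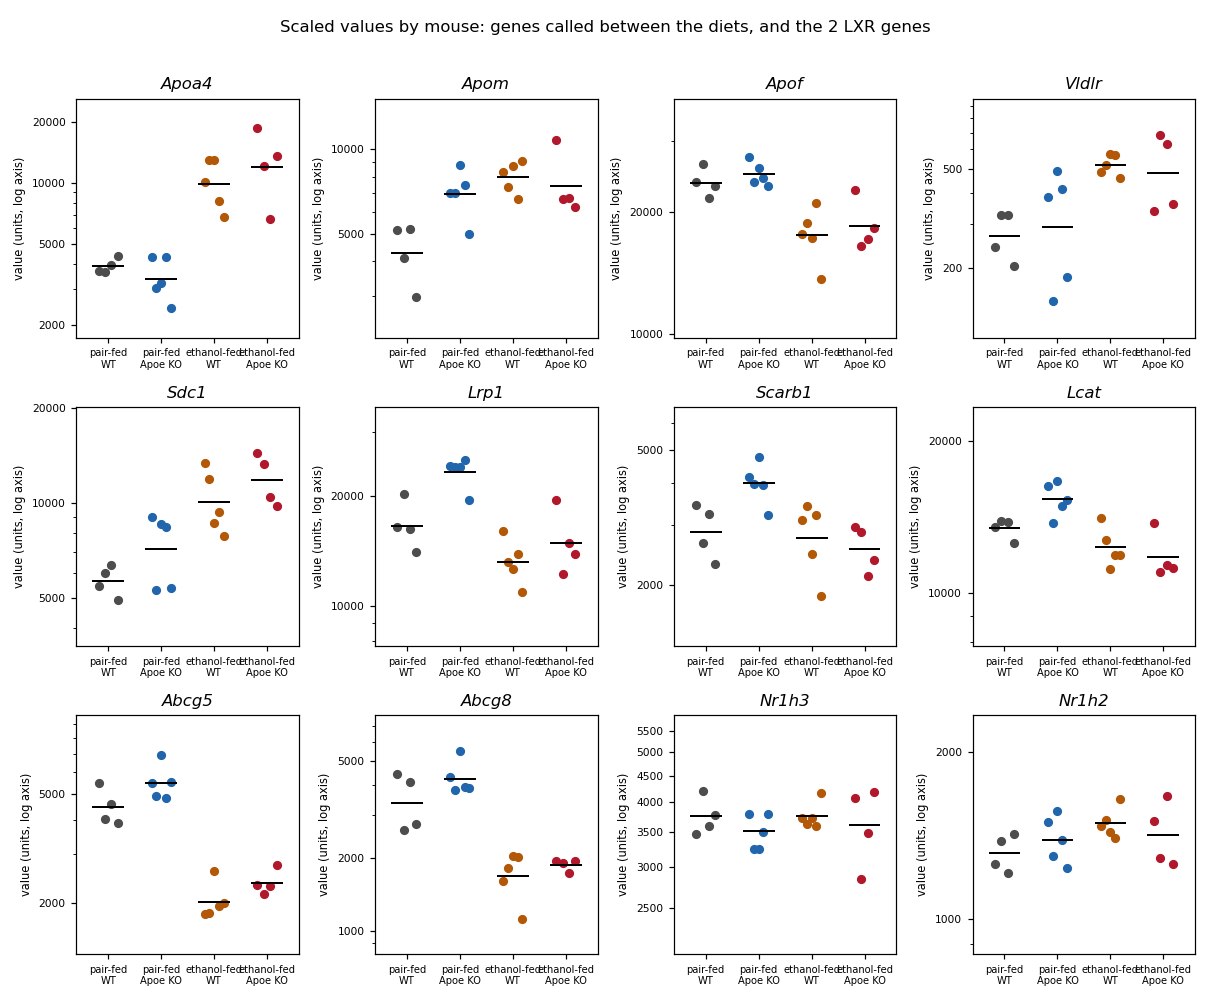
Scaled values in units (log axis) of 10 genes called between the diets and of the 2 LXR genes, with 1 point per mouse and a line at the mean of log2(value + 1), in the 4 groups. *Abcg5* lies at 3905 to 6910 units in the 9 pair-fed and at 1818 to 2738 units in the 9 ethanol-fed mice, while *Nr1h3* spans 2848 to 4218 units over all 18 mice.

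Of the 13 other listed genes of lipoprotein and remnant uptake, 1 was called lower and 1 higher with ethanol in WT mice. In *Apoe* KO mice 1 was called lower and 5 higher. Over all genes, 12.7% were called with ethanol in WT and 23.2% in *Apoe* KO mice. Among the 10 further LXR targets, 1 was called higher and 3 lower with ethanol in WT, and 2 higher and 3 lower in *Apoe* KO mice. In *Apoe* KO mice without ethanol-fed mouse 1, *Srebf1* gave a log2 fold change of −1.73 (adjusted p = 9.72e-05). *Mylip*, a ubiquitin ligase, rose by 0.54 (adjusted p = 0.00757) in WT and 0.76 (adjusted p = 0.006) in *Apoe* KO mice. In the same order *Scd1* gave −1.67 (adjusted p = 0.000511) and −1.06 (adjusted p = 0.0109). *Lipg*, the endothelial lipase, gave −1.60 (adjusted p = 0.00102) and −2.09 (adjusted p = 3.15e-05). *Soat2*, the cholesterol esterification enzyme, rose by 0.97 (adjusted p = 0.00332) and 0.68 (adjusted p = 0.000255). It was the only one of the 15 other VLDL assembly genes called higher, while 1 was called lower in WT and 5 in *Apoe* KO mice. Without ethanol-fed *Apoe* KO mouse 1, *Ces1d* and *Aadac* of this list gave −1.03 (adjusted p = 0.000607) and −0.61 (adjusted p = 0.000593) in *Apoe* KO mice. *Nr0b2*, the small heterodimer partner that represses bile acid synthesis, fell in *Apoe* KO mice, from 451 to 1407 units down to 81 to 147 units (−2.92, adjusted p = 2.08e-05).

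Markers of sinusoidal endothelium moved with the diet and, in pair-fed mice, with the genotype. Of 6 such markers, 5 were called higher in ethanol-fed WT and 6 in ethanol-fed *Apoe* KO mice, with a sum from 4880 to 5256 units in pair-fed WT, 2667 to 4139 in pair-fed *Apoe* KO, 6580 to 8663 in ethanol-fed WT and 5977 to 10066 units in ethanol-fed *Apoe* KO mice. Between pair-fed *Apoe* KO and WT mice, 2 of the 6 were called lower, *Clec4g* at −0.66 (adjusted p = 0.00998) and *Fcgr2b* at −0.63 (adjusted p = 0.0318), the sums of the 2 groups did not overlap, and the median of the 6 log2 fold changes was −0.485. None of the 6 was called between the ethanol-fed genotypes by limma, and none had an unadjusted p below 0.05. The part of these cells in the pair-fed genotype results of *Pltp*, *Lpl*, *Abca1* and *Hspg2* was not tested. Of 6 Kupffer cell markers, 2 were called lower with ethanol in WT mice and 2 higher in *Apoe* KO mice. Over all 15052 genes, 12.7% were called between the diets in WT and 23.2% in *Apoe* KO mice. Of the latter calls, 2446 were higher and 1042 lower. Between the genotypes the share was 1.73% in pair-fed and 4.69% in ethanol-fed mice. Of 7 stellate cell markers, 6 (5 without ethanol-fed *Apoe* KO mouse 1) were called higher with ethanol in *Apoe* KO mice. In WT mice none was called and 1 had an unadjusted p of limma below 0.05, as did 4236 of all 15052 genes. Between the ethanol-fed genotypes, 2 of the 7 were called higher in *Apoe* KO mice. *Fabp4*, the only one of 5 adipocyte markers with values, ranged from 186 to 398 units in pair-fed and from 315 to 1219 units in ethanol-fed mice, and of 4 cholangiocyte markers 1 was lower with ethanol in WT and 1 higher in *Apoe* KO mice. The part of these cells in the diet results of *Lpl*, *Abcg1*, *Cd36*, *Vldlr* and *Pltp* was not tested.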

How the data were processed

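Liver RNA of 18 mice was selected for poly(A) and sequenced by the authors. Per the labels, their processing used FastQC, Trimmomatic, HISAT2, SAMtools, featureCounts and DESeq2 with the build GRCm38, and versions and the strand setting of the counting are not given in the sources used here. The deposited values are a signal per gene: read counts that the authors had scaled to nearly equal totals and rounded to whole numbers, by a step that is not described. Since they are not raw counts, no count model was used, and the share that counting error takes is not known for most libraries. The deposited table also holds columns of the authors' own comparison of the ethanol-fed genotypes (fold changes, test statistics, p-values and ranks), which were not used.

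The 15247 entries were reduced to 1 per Ensembl identifier (15052 genes; 56 genes stood on several entries with identical values), of which 1329 have no symbol. The mean over 18 mice was at least 12.06 units, so no further filter was set. limma 3.58.1 in R 4.3.3 was fitted, its variances moderated by empirical Bayes with a trend on the mean level, to log2(value + 1) of all genes, over the 2 groups compared, or over all 4 groups for the interaction of diet and genotype. P-values were Benjamini-Hochberg adjusted over all genes, and the threshold was 0.05. A fold change on this scale understates changes of low genes. The group of each mouse was taken from its title. All 33 genes may be named, and of the other lists at most the 4 genes with the largest called change per list and comparison, besides cell type and sex markers. From the list of uptake genes, 2 genes are not reported here. The genes and lists were chosen with earlier results of these data known. The fits were repeated after scaling by median-of-ratios size factors, with a pseudocount of 10, with a minimum mean of 20, over all 4 groups, with a quality weight per sample, with the mouse number as a block, and without each mouse in turn. The fits with the mouse number as a block kept only mice whose number occurs in every group compared. Gene positions and exons were taken from the GENCODE annotation of GRCm38, and start sites and sequences from RefSeq GRCm38.p6, which held windows for 25 of the 33 genes. The fit was tested on simulated data. Tables and plots used Python 3.11.15 with numpy 2.4.6, pandas 2.3.3 and matplotlib 3.10.9.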

Additional observations from a re-analysis of the deposited data

Results flagged for a closer look

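In 144 sets of values (33 genes and 3 sex-linked genes in 4 groups), 1 mouse stood apart from the rest of its group 11 times by Dixon's ratio, the gap to the nearest mouse over the range of the group. Chance gives about 1 in 20, here about 7. That figure takes the sets as independent, whereas the genes were measured in the same mice. The sex-linked genes had already set ethanol-fed *Apoe* KO mouse 1 apart, so their sets cannot be held against chance. Ethanol-fed *Apoe* KO mouse 1, whose sex-linked genes went against its label, was lowest for *Apoe* (ratio 0.855), *Abca1* (0.919) and *Xist* (0.917) and highest for *Apom* (0.872), *Lcat* (0.858) and *Eif2s3y* (0.866). In pair-fed *Apoe* KO mice, mouse 3 was highest for *Apoa5* (0.822) and mouse 5 lowest for *Lrp1* (0.824). In ethanol-fed WT mice, mouse 3 was highest for *Abcg5* (0.746) and mouse 5 for *Nr1h3* (0.742), and in ethanol-fed *Apoe* KO mice, mouse 4 was lowest for *Abcg8* (0.846).

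The difference between the genotypes depended on the diet for *Pltp*, with an interaction of 2.47 on the log2 scale by limma. Of the 33 genes this held only for *Pltp*. Among the listed pathway genes it held for *Srebf1* (−1.08), *Arl4c* (1.85), *Hspg2* (1.08), *Pnpla2* (0.85), *Apobec1* (0.71) and *Apobr* (1.92). Without ethanol-fed *Apoe* KO mouse 1 it was not called for *Srebf1* (adjusted p = 0.0631) and *Pnpla2* (adjusted p = 0.0617).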

How the results depend on the processing

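No log2 fold change of the 33 genes that was called changed its sign under any alternative. Of 165 results (33 genes in 5 comparisons), 33 were called, 18 others were called under at least 1 alternative, and 114 under none. Leaving out 1 mouse at a time, the number of called genes of the 33 ran from 3 to 5 between the ethanol-fed genotypes, from 2 to 11 between the pair-fed genotypes, from 7 to 9 for ethanol in WT, from 10 to 13 for ethanol in *Apoe* KO mice and from 1 to 2 for the interaction. In ethanol-fed mice 3 were called without *Apoe* KO mouse 4, where the calls over all genes fell from 706 to 353. In pair-fed mice 2 were called without WT mouse 2, 3 without WT mouse 4, *Apoe* KO mouse 1 or *Apoe* KO mouse 4, and 11 without *Apoe* KO mouse 5. The calls over all genes, 261 with all mice, were 73, 91, 119, 127 and 452 in the same order. The interaction had 2 without pair-fed *Apoe* KO mouse 5 or ethanol-fed *Apoe* KO mouse 1 (409 and 479 of all genes, against 428 with all mice). Whether these changes come from the particular mouse or from the smaller number of mice was not tested.

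Scaling by median-of-ratios size factors shifted the calls over all genes between the ethanol-fed genotypes from 639 higher and 67 lower to 379 and 127, those of ethanol in *Apoe* KO mice from 2446 and 1042 to 1646 and 1617, and those of the interaction from 392 and 36 to 294 and 84. The correlation between the deviations of mice with the same number was above 0.1 for 3 of 4 pairs between the ethanol-fed genotypes (0.144 to 0.23, the other −0.0242, with a mean of 0.135 against −0.0327 for mice of other numbers) and for at most 1 of 4 pairs in each of the other comparisons (−0.217 to 0.159). Since in no comparison all pairs were above 0.1, the numbers were not taken as pairs in the main fits. This limit was chosen here and cannot decide whether the ethanol-fed mice were paired. The fits with the mouse number as a block also left out mice whose number is missing from a group compared. For genotype these were ethanol-fed WT mouse 3 and pair-fed *Apoe* KO mouse 5. For ethanol they were ethanol-fed WT mouse 5 and pair-fed *Apoe* KO mouse 3. The interaction kept only mice 1, 2 and 4 of each group. In these fits 5, 8, 8 and 11 genes were called for genotype in ethanol-fed and pair-fed mice and for ethanol in WT and *Apoe* KO mice, and 3 for the interaction, where *Scarb1* and *Lsr* joined *Pltp*. In pair-fed mice this fit lost the calls of *Apoc2* (adjusted p = 0.0622) and *Lpl* (adjusted p = 0.0828) and added *Apom*, *Scarb1* and *Lsr*. For ethanol in WT mice it lost that of *Apof* (adjusted p = 0.122). Leaving out only pair-fed *Apoe* KO mouse 5 also lost the call of *Lpl* and added *Apom*, *Scarb1* and *Lsr*. Leaving out only ethanol-fed WT mouse 5 also lost that of *Apof*. The part of the block itself in these changes was not tested. Over all genes, the calls in the fits with a block went from 706 to 1083 between the ethanol-fed and from 261 to 392 between the pair-fed genotypes. Without ethanol-fed WT mouse 3 alone the former were 578, and without pair-fed *Apoe* KO mouse 5 alone the latter were 452. With sample quality weights the calls between the pair-fed genotypes went to 456. Depth limits *Apoc2* most, since its values in ethanol-fed *Apoe* KO mice 4 and 5 stood for about 10 and 9 reads.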
